A study of Mus musculus with 60 samples.

Results

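The Ly6 genes measured here were Ly6c1, Ly6c2, Ly6e and Ly6d, which encode small proteins of the leukocyte surface. A probe set, the group of probes on an expression array that reads one transcript, was taken if its annotation named Ly6c1, Ly6c2, Ly6a, Ly6e or Ly6d by symbol or alias, and 1 probe set was also given by its identifier. This rule found 4 of the 45037 probe sets, for 4 of the 19324 genes named on the arrays. The probe set given by identifier is annotated to both Ly6c1 and Ly6c2, which it cannot tell apart, and is called the Ly6C probe set below. Ly6e had 2 probe sets, a brighter and a dimmer one, and Ly6d had 1. No probe set was named Ly6a in the annotation used, so Ly6a is not reported here. The Ly6C probe set was chosen by its strain difference in these data, so its strain values are given as a description with no test. The others were taken by gene name, from a list of members drawn up with earlier results of these data known. All 4 passed the filter on dim probe sets, in every mouse.

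Total RNA came from spleen leukocytes that were neither cultured nor treated, collected from female mice of 3 strains at 2 and 4 weeks of age, with 5 mice in each of the 6 groups (30 mice). NOD mice become diabetic through autoimmunity with no induction. NON mice, which are related to them, stay free of the disease, and C57BL/6 is a control strain of more distant descent. No group carried an engineered allele or an agent. Whether a sample came from a single mouse or from pooled mice was not given in the sources used here, and each is called a mouse below. Each mouse had a 430A and a 430B array, and signals are MAS5 intensities on a linear scale, comparable for a probe set between mice but not between probe sets. Sums over cell type markers add these signals unscaled, so the brightest markers weigh most in them.

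Ly6 proteins are short, disulphide-rich domains held at the cell surface by a glycosylphosphatidylinositol (GPI) lipid anchor. Ly6C, the product of Ly6c1 and Ly6c2, is used to mark inflammatory monocytes and is also carried by neutrophils, plasma cells and memory CD8 T cells. Ly6e is broadly expressed, is induced by type I interferon and is known to limit the entry of some viruses, while Ly6d marks B cells and their committed precursors in bone marrow. Their genes lie in one cluster with other Ly6 genes, many of which are close copies of each other.

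The likeness of the 2 Ly6C genes can be read near the annotated starts of their transcripts, at the site of one of the study's PCR primers for Ly6c1. The primers and the matching stretches of the reference are shown because they show how far a short primer at this site can separate these copies. The array probes were not placed on these stretches. Primers are the study's own and are printed as it lists them. The stretches are from RefSeq promoter windows of GRCm38.p6, written 5′ to 3′ along the gene, with bases that differ from the left primer in capitals.
Ly6c1 left primer: gtccacatctgacagaacttgc
Ly6c1 right primer: tccatcctcagagaagggttc
Ly6c1, chr15:75048815-75048836, minus strand: gtccacatctgacagaacttgc
Ly6c2, chr15:75111970-75111991, minus strand: gtccacTtctgacagaCcttAc
Ly6f, chr15:75268398-75268419, plus strand: gtGcacatctgacagaTcttAc
Ly6g, chr15:75155309-75155330, plus strand: gtccacTtctgaAagaCcttgT
The left primer matched Ly6c1 at all 22 bases. Relative to the annotated transcript starts, this site began at 1 and -173 in Ly6c1, and the matching stretch of Ly6c2 began at -20 and -54. The Ly6c2 stretch differed at 3 positions, A7T, A17C and G21A, counted from 1 at the 5′ end of the primer with its base first. Ly6f, another gene of the cluster, also differed at 3 positions (C3G, A17T and G21A), and Ly6g, which encodes a marker of neutrophils, at 4 (A7T, C13A, A17C and C22T). Among all 32851 promoter windows, the only genes within 4 mismatches of this primer were Ly6c1, Ly6c2, Ly6f, Ly6g and Ly6a2. The right primer was not searched for in these windows.

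Just upstream of that primer site the 2 Ly6C genes were less alike. The 100 bases before it are shown for both, with capitals where the pair differ or have no partner in a global alignment.
Ly6c1, chr15:75048837-75048936, minus strand: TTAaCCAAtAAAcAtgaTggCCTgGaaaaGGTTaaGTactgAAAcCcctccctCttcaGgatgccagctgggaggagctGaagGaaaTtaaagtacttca
Ly6c2, chr15:75111992-75112091, minus strand: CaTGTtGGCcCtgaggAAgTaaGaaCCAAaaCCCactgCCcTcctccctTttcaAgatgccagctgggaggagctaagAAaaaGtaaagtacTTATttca
Identical bases filled 69 of the 107 aligned columns (64.5%). Neither gene's windows held the core of an interferon-stimulated response element or of a gamma-activated sequence (TTCNNNGAA) on either strand, letters that 3.44% and 8.3% of all windows held. No window was given for Ly6a, Ly6e or Ly6d.

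The signal of the Ly6C probe set, which reads Ly6c1 and Ly6c2 together, was low in NOD mice and high in both control strains. In 2-week-old NOD mice the signals were 479, 499, 619, 717 and 1092. In 2-week-old NON mice they were 2422, 2819, 2846, 4017 and 5049, and in C57BL/6 mice of that age they were 3044, 3565, 3575, 3723 and 4044. The highest NOD mouse therefore lay below the lowest mouse of either control strain, while NON and C57BL/6 overlapped. The means were 681 ± 249 in NOD (SD, n = 5), 3430 ± 1084 in NON and 3590 ± 361 in C57BL/6, so the NON mean was 5.04 times and the C57BL/6 mean 5.27 times that of NOD.

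At 4 weeks the 5 NOD mice had signals of 453, 543, 727, 849 and 882 for the Ly6C probe set. NON mice of 4 weeks had 3066, 3302, 3652, 4046 and 4583, and C57BL/6 mice had 2325, 2584, 2632, 2754 and 2921. All NOD mice again lay below all controls, and here every C57BL/6 mouse was also below every NON mouse. The NON mean of 3730 ± 604 was 5.40 times and the C57BL/6 mean of 2643 ± 220 was 3.83 times the NOD mean of 691 ± 188. These differences chose the probe set and carry no test. On the log2 scale, NOD minus the mean of both controls was -2.38 at 2 weeks and -2.20 at 4 weeks.

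**Figure D1:**
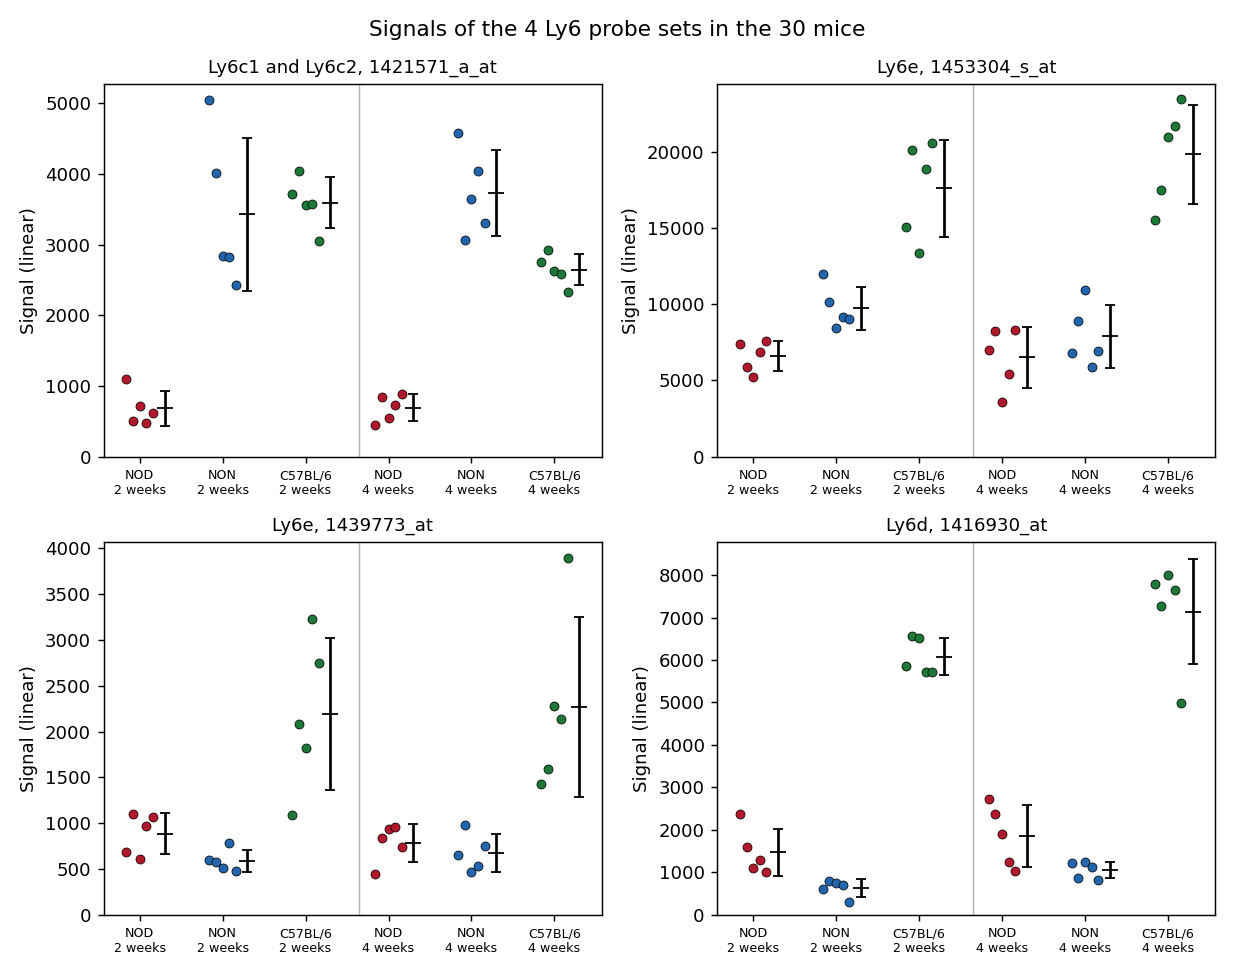
Signal (linear scale from 0, arbitrary intensity units) of each Ly6 probe set in the 30 mice, with 1 point per mouse and the mean ± SD (n = 5) to the right of each group. NOD mice lie below all controls for the probe set of Ly6c1 and Ly6c2, with the highest NOD mouse at 1092 and the lowest control at 2325, whereas C57BL/6 mice are highest for Ly6e and Ly6d.

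Array probe sequences were not given in the sources used here. The part of strain sequence differences under the probes was thus not tested for any Ly6 probe set. The study reports that its quantitative PCR of Ly6c1 matched its array result. Bulk RNA was measured, so fewer cells of a type and less RNA per cell cannot be told apart. Markers of the main cell types that carry Ly6C were therefore set beside these values. All 11 monocyte and macrophage markers were above background, and at 2 weeks their summed signal was 20375 to 36269 in NOD, 21002 to 27069 in NON and 20856 to 22721 in C57BL/6. At 4 weeks it was 14684 to 24929 in NOD, 20129 to 34994 in NON and 16799 to 21039 in C57BL/6. The ranges of the 3 strains overlapped at both ages, and the part of these cells in the Ly6C signal was not tested. By limma's F-test 1 of the 11 differed between the strains at 2 weeks and 2 at 4 weeks, beside 1.66% and 1.51% of all kept probe sets. Ms4a6c, a membrane protein of monocytes, was called at both ages and was highest in C57BL/6 and lowest in NON, with means of 1285 in NOD, 423 in NON and 3125 in C57BL/6 at 2 weeks and 1534, 558 and 5200 at 4 weeks. Chil3, a chitinase-like protein of macrophages and neutrophil precursors, was called at 4 weeks, with means of 3130 in NOD, 7147 in NON and 1491 in C57BL/6. The 10 neutrophil markers measured summed to 57540 to 121566 in NOD at 2 weeks, overlapping both controls, and at 4 weeks to 28394 to 50195 in NOD, against 54365 to 81106 in NON and 21712 to 38202 in C57BL/6. Plasma cell markers (7 of 7 measured) and markers of memory or cytotoxic T cells and NK cells (10 of 10) had NOD medians of 18892 and 3661 at 2 weeks, against 13847 and 2382 in NON and 13880 and 4110 in C57BL/6. At 4 weeks these medians were 22825 and 6957 in NOD, 19469 and 8429 in NON and 17341 and 6029 in C57BL/6. The memory or cytotoxic sum was then 3410 to 6982 in NOD, below every NON mouse (7081 to 9327) and overlapping C57BL/6 (4840 to 7750). By limma's F-test 0 of the 7 and 0 of the 10 passed at either age.

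Ly6e was highest in C57BL/6 mice on both of its probe sets. On the brighter one, 2-week-old C57BL/6 mice had signals of 13378, 15043, 18855, 20140 and 20577. NON mice of that age had 8437, 8998, 9133, 10164 and 12002, and NOD mice had 5253, 5870, 6844, 7373 and 7600. The 3 strains did not overlap at 2 weeks, with C57BL/6 on top and NOD at the bottom. The C57BL/6 mean of 17599 ± 3211 (SD, n = 5) was 2.67 times the NOD mean of 6588 ± 1000 (log2 difference NOD minus C57BL/6 -1.41, standard error 0.19, limma adjusted p = 0.000856) and 1.81 times the NON mean of 9746 ± 1406 (adjusted p = 0.0335). Between NOD and NON the log2 difference was -0.57, standard error 0.19, and did not pass the adjustment (limma adjusted p = 0.286, 95% interval -0.96 to -0.17 before it).

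At 4 weeks the same Ly6e probe set read 15558, 17504, 20977, 21684 and 23489 in C57BL/6. It read 5874, 6787, 6906, 8911 and 10961 in NON and 3612, 5441, 7021, 8260 and 8287 in NOD. C57BL/6 mice were apart from the rest, whereas NON and NOD overlapped. The C57BL/6 mean was 3.04 times that of NOD (log2 difference NOD minus C57BL/6 -1.65, standard error 0.25, limma adjusted p = 0.00395) and 2.52 times that of NON (adjusted p = 0.0186), and the NOD to NON difference was -0.30 (adjusted p = 0.721). The lowest of these 15 mice, NOD replicate 3, correlated less with the other NOD mice of its group over all kept probe sets (median r 0.739) than they did with each other (up to 0.859). The C57BL/6 minus NON difference of the brighter probe set, 0.84 at 2 weeks and 1.35 at 4 weeks on the log2 scale, lay near the threshold. At 2 weeks it missed it without NOD replicate 4, without NON replicate 3, 4 or 5 or without C57BL/6 replicate 2, 4 or 5 (log2 difference 0.78 to 0.84, limma adjusted p 0.0506 to 0.0952), and at 4 weeks without NON replicate 1, 4 or 5 or C57BL/6 replicate 3, 4 or 5 (1.25 to 1.33, adjusted p 0.0512 to 0.0602).

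The dimmer Ly6e probe set placed C57BL/6 highest as well but put NON, not NOD, at the low end. At 2 weeks its signals were 1085, 1826, 2088, 2747 and 3231 in C57BL/6. They were 607, 682, 975, 1072 and 1097 in NOD and 474, 514, 571, 597 and 785 in NON. One C57BL/6 mouse, at 1085, fell within the NOD range, and NOD and NON overlapped. The C57BL/6 mean of 2195 ± 830 (SD, n = 5) was 3.73 times the NON mean of 588 ± 120 (log2 difference 1.81, standard error 0.28, limma adjusted p = 0.00359) and 2.48 times the NOD mean of 886 ± 227. The latter difference just missed the threshold (adjusted p = 0.0542) and passed it without that C57BL/6 mouse, replicate 1 (adjusted p = 0.0108).

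In 4-week-old mice the dimmer Ly6e probe set read 1430, 1597, 2140, 2282 and 3899 in C57BL/6. It read 443, 740, 840, 933 and 960 in NOD and 468, 529, 650, 749 and 981 in NON. All C57BL/6 mice lay above all others. The C57BL/6 mean of 2270 ± 979 was 3.36 times that of NON (limma adjusted p = 0.0125) and 2.90 times that of NOD (adjusted p = 0.0266), the latter missing the threshold without NOD replicate 1 or 5 or C57BL/6 replicate 3, 4 or 5 (0.0623 to 0.0741). Between NOD and NON the 2 Ly6e probe sets differed in sign. The brighter gave log2 differences of -0.57 and -0.30 at 2 and 4 weeks and the dimmer gave 0.56 and 0.21, none of which passed (adjusted p of the dimmer 0.554 and 0.85).

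Ly6d differed most between the strains among the 3 probe sets tested. In 2-week-old C57BL/6 mice the signals of its probe set were 5712, 5718, 5860, 6529 and 6560. NOD mice had 1017, 1095, 1290, 1604 and 2382, and NON mice had 290, 619, 707, 753 and 796. The strains were fully separated, in the order C57BL/6, NOD, NON. The C57BL/6 mean of 6076 ± 432 (SD, n = 5) was 9.60 times the NON mean of 633 ± 203 (log2 difference 3.32, standard error 0.28, limma adjusted p = 1.04e-05) and 4.11 times the NOD mean of 1477 ± 554 (NOD minus C57BL/6 -2.10, adjusted p = 0.00103). The NOD mean was 2.33 times that of NON. These groups did not overlap, but the difference did not pass after adjustment (limma adjusted p = 0.0775). It passed with a pseudocount of 50 (log2 difference 1.16, limma adjusted p = 0.0451) and with an intensity trend (1.22, adjusted p = 0.0335).

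Ly6d kept this order of means at 4 weeks. The signals were 4977, 7270, 7646, 7798 and 8004 in C57BL/6. In NOD they were 1024, 1247, 1891, 2381 and 2721, and in NON 830, 854, 1136, 1209 and 1242. C57BL/6 was again separate, with its lowest mouse, replicate 5, well below the other four, and NOD overlapped NON. The C57BL/6 mean of 7139 ± 1238 was 6.77 times the NON mean of 1054 ± 198 (log2 difference 2.75, standard error 0.27, limma adjusted p = 5.35e-05) and 3.85 times the NOD mean of 1853 ± 722 (adjusted p = 0.00108). NOD was 1.76 times NON (adjusted p = 0.324).

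All 3 probe sets taken by gene name (both of Ly6e and that of Ly6d) differed between the strains by limma's moderated F-test at 2 weeks, where 1.66% of all kept probe sets did (adjusted p 0.00168, 0.00633 and 1.94e-05), and at 4 weeks, where 1.51% did (0.00472, 0.0128 and 7.21e-05). All 3 were higher in C57BL/6 than in NON at both ages, calls that 0.99% of kept probe sets received at 2 weeks and 0.473% at 4 weeks. Against NOD, C57BL/6 was higher on 2 of 3 at 2 weeks and 3 of 3 at 4 weeks, beside 0.512% and 0.666% of all kept probe sets. None of the 3 passed between NOD and NON (limma), where 0.546% and 0.582% of all probe sets did. At an unadjusted p under 0.05 were 2 and 1 of the 3, beside 3619 and 4116 of the 38293 kept probe sets. The Gapdh 3′/5′ signal ratio, a sign of RNA quality, was 1.02 to 2.17 in C57BL/6 at 2 weeks, 0.744 to 1.06 in NOD and 0.746 to 4 in NON, and at 4 weeks 0.804 to 2.4, 0.763 to 1.3 and 0.967 to 3.15. Erythroid markers (5 of 7 measured) had a median log2 difference, C57BL/6 minus NON, of -1.35 at 2 weeks and -1.29 at 4 weeks, and of these Klf1, an erythroid transcription factor, passed at 2 weeks (limma adjusted p = 0.0266) and 0 passed at 4 weeks. The part of RNA quality and of these cells in the differences was not tested. Both Ly6e probe sets read one gene, so the 3 probe sets stand for 2 genes. The NOD values were compared with both control strains, so comparisons of an age share mice.

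**Figure D2:**
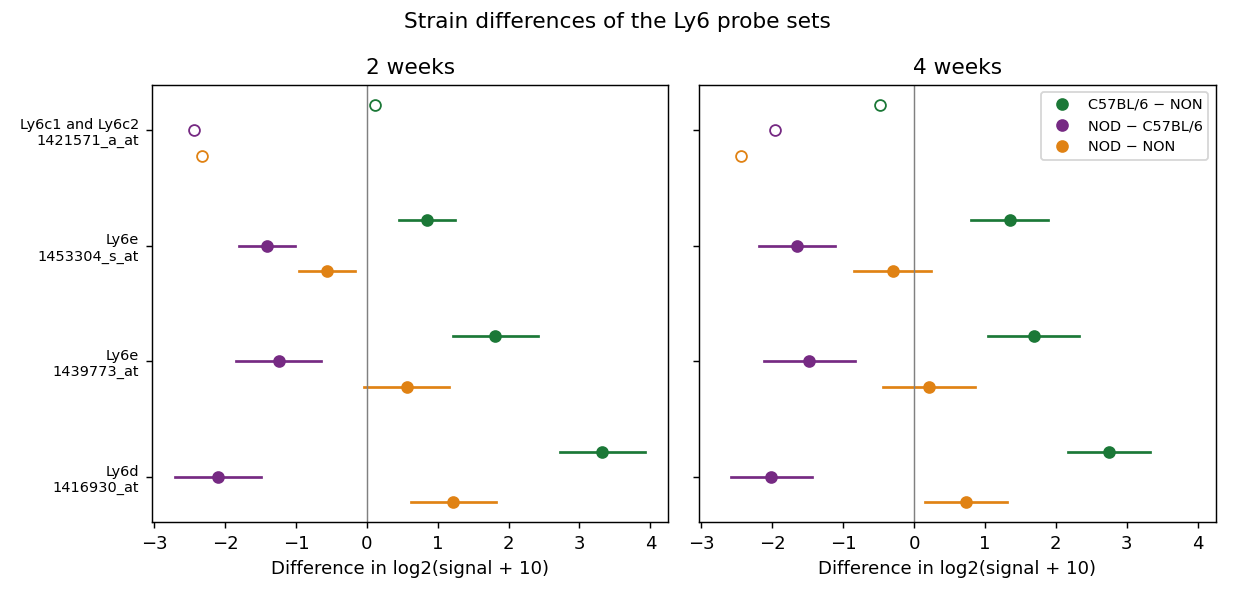
Pairwise strain differences of the Ly6 probe sets at 2 weeks (left) and 4 weeks (right) in log2(signal + 10), with 95% intervals as lines for Ly6e and Ly6d. Open circles without a line show Ly6c1 and Ly6c2, whose strain difference chose the probe set. The C57BL/6 minus NON difference lies above 0 for Ly6e and Ly6d, reaching 3.32 for Ly6d at 2 weeks, and the open circles of NOD against either control lie at -1.96 or lower.

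C57BL/6 mice also had the highest median sum of T cell markers, of which 6 of 7 were measured. Their sum at 2 weeks was 2549 to 5453 in C57BL/6, 2338 to 5402 in NOD and 835 to 1937 in NON, and at 4 weeks 4775 to 7270, 4493 to 6324 and 2969 to 3852. Between NOD and C57BL/6 0 of these 6 were called with limma at either age, where 0.841% and 1.13% of all kept probe sets were. Higher in C57BL/6 than in NON were 3 at 2 weeks and 2 at 4 weeks, beside 0.99% and 0.473% of all kept probe sets. The 2 CD8 T cell markers, Cd8a and Cd8b1, summed to 1542 to 2767 in C57BL/6, 770 to 1061 in NOD and 266 to 821 in NON at 2 weeks, and to 2075 to 3313, 1334 to 1619 and 921 to 1270 at 4 weeks. C57BL/6 was thus highest for CD8 T cell markers without overlap, as it was for Ly6d, and the part of these cells in the Ly6e and Ly6d differences was not tested. B cell markers, the type that Ly6d marks, summed to 26542 to 34863 in C57BL/6 at 2 weeks, 19886 to 30413 in NOD and 11687 to 26582 in NON. At 4 weeks they summed to 26772 to 35513, 18601 to 28284 and 24552 to 31056, with medians of 31298, 22802 and 26552, so that NOD was lowest, whereas for Ly6d NON had the lowest mean. The ranges of neighbouring strains overlapped at both ages, and 0 of the 6 markers measured passed limma's F-test at either age. Markers of B cell precursors (8 of 9 measured) summed to 4517 to 7779 in C57BL/6, 2661 to 7716 in NOD and 3497 to 10068 in NON at 2 weeks, and to 2689 to 3214, 1680 to 2751 and 2769 to 3270 at 4 weeks. By the F-test 0 of these 8 passed at either age. With age 3 of the 8 fell in NOD, 3 in NON and 5 in C57BL/6 (limma). Among all kept probe sets 0.146%, 1.46% and 0.46% were called in either direction. The part of these cells in the Ly6d signal was not tested. No marker of these lists was below a signal of 50 in every mouse.

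**Figure D3:**
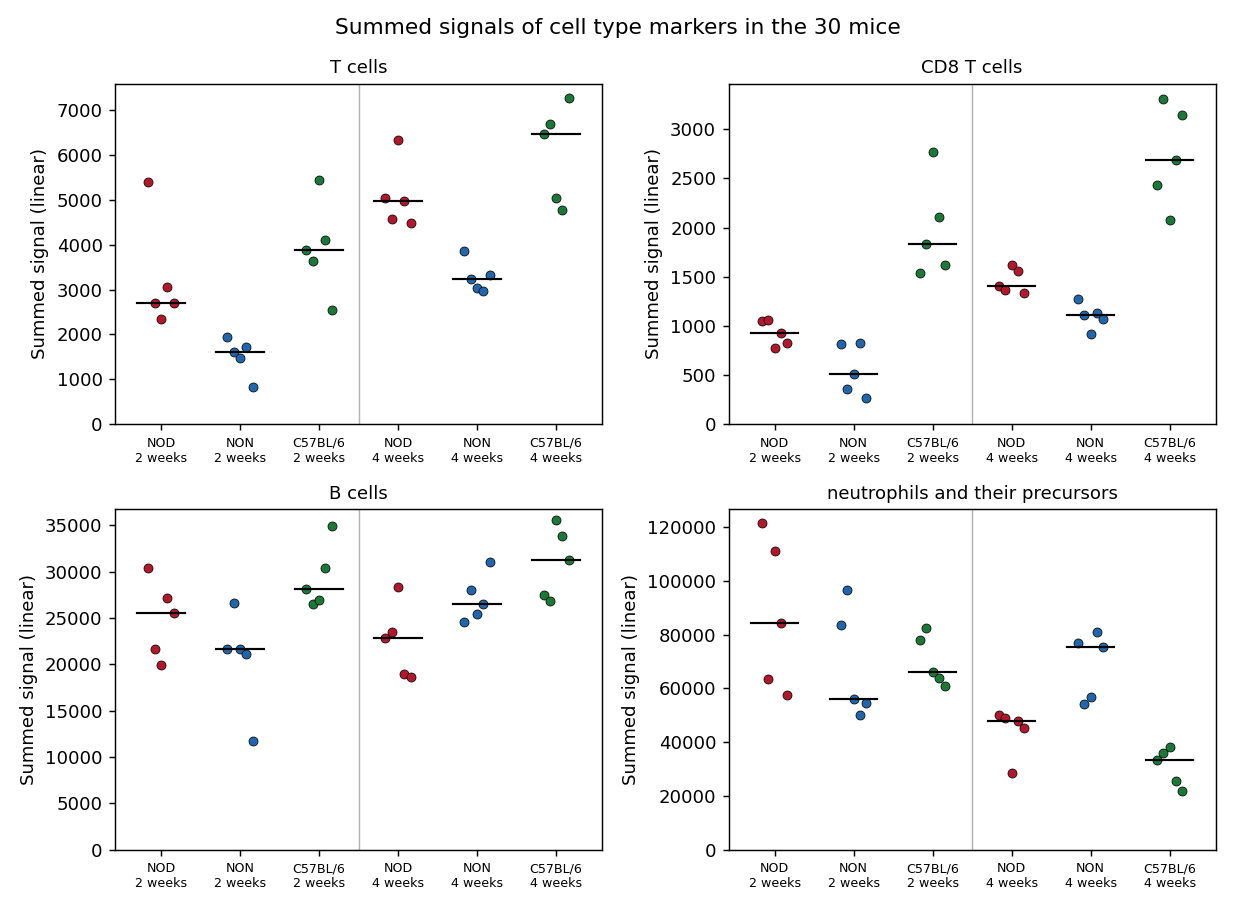
Summed signal (linear scale from 0, arbitrary intensity units) of the markers of T cells, CD8 T cells, B cells and neutrophils with 1 point per mouse and the median of each group as a line. C57BL/6 mice are highest for CD8 T cell markers, at 1542 to 2767 at 2 weeks, and B cell markers overlap between neighbouring strains, with 1 NON mouse of 2 weeks at 11687.

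None of the Ly6 probe sets passed the test of age in any strain. In NOD mice the mean of the Ly6C probe set was 681 at 2 weeks and 691 at 4 weeks, a log2 difference of 0.04 (standard error 0.22, limma adjusted p = 0.978). In NON mice the difference was 0.16 (adjusted p = 0.839). C57BL/6 mice of 4 weeks, at 2325 to 2921, all lay below those of 2 weeks, at 3044 to 4044, yet the log2 difference of -0.44 (standard error 0.22, 95% interval -0.90 to 0.02) did not pass (limma adjusted p = 0.779, unadjusted 0.0594). The summed neutrophil markers of C57BL/6 mice moved the same way, from 60833 to 82539 at 2 weeks to 21712 to 38202 at 4 weeks, and 5 of 10 fell (limma, adjusted p under 0.05), beside 0.46% of all kept probe sets called in either direction. In NOD mice, whose Ly6C signal hardly moved, that sum also fell, from 57540 to 121566 to 28394 to 50195. There 2 of 10 fell, beside 0.146% of all kept probe sets. In NON mice the sums of the 2 ages overlapped (50160 to 96733 and 54365 to 81106), and 1 of 10 fell, beside 1.46%. The part of neutrophils in the lower C57BL/6 signal was not tested.

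Ly6d had its widest age difference in NON mice. All 5 NON mice of 4 weeks, at 830 to 1242, lay above all those of 2 weeks, at 290 to 796, a ratio of means of 1.67 (log2 difference 0.79, standard error 0.27, limma unadjusted p = 0.008 and adjusted p = 0.167). In NOD and C57BL/6 mice the Ly6d differences were 0.30 and 0.21 (adjusted p = 0.807 and 0.973). For Ly6e the differences ranged from -0.33 to 0.18 on the brighter probe set and from -0.19 to 0.17 on the dimmer one. Of the 12 age differences (4 probe sets in 3 strains), 0 passed at an adjusted p under 0.05 with limma. Among all kept probe sets 0.146% passed in NOD, 1.46% in NON and 0.46% in C57BL/6. Only 1 of the 12, that of Ly6d in NON, had an unadjusted limma p under 0.05. Of the 38293 kept probe sets, 3409 in NOD, 4962 in NON and 2564 in C57BL/6 had such an unadjusted p. By the methods' t-test 0 passed after adjustment, and 1, the C57BL/6 difference of the Ly6C probe set, had an unadjusted p under 0.001 (0.00092, and 0.162 after adjustment). The age difference was not shown to vary between strains for any of the 4 (limma interaction F-test, adjusted p 0.795 to 0.952, none at an unadjusted p under 0.05), where 1 of the 38293 probe sets (0.00261%) passed.

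**Figure D4:**
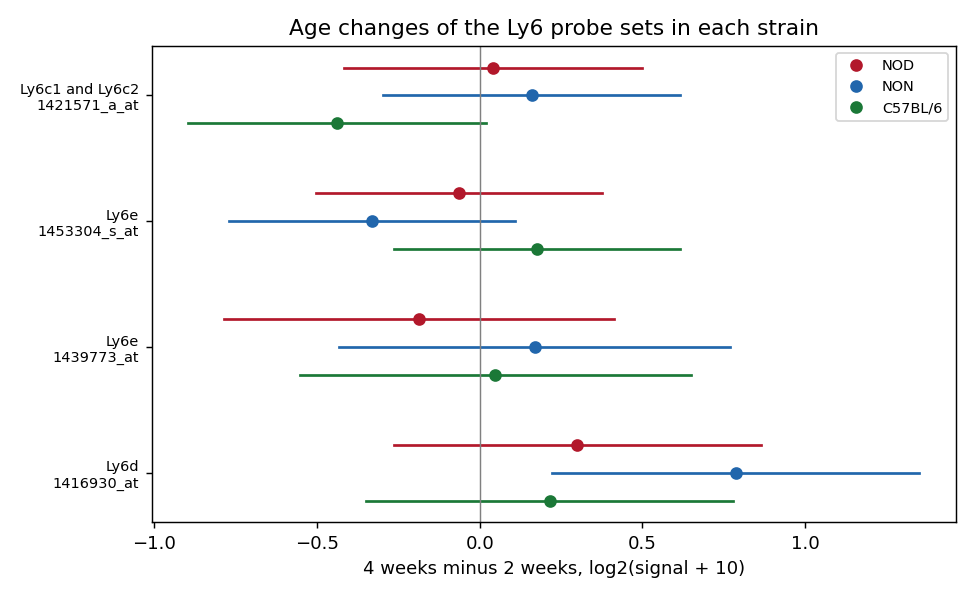
Age difference (4 weeks minus 2 weeks, log2(signal + 10)) of each Ly6 probe set in NOD, NON and C57BL/6 mice, with 95% intervals as lines. Of the 12 intervals, unadjusted for the number of tests, that of Ly6d in NON mice, at 0.22 to 1.35, does not include 0.

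Within groups, the Ly6 genes varied with little correlation. After the mean of each strain and age group was removed, Pearson's r over the 30 mice ran from -0.279 to 0.218 among the 6 pairs of probe sets, and the 2 Ly6e probe sets had an r of 0.193. Mice of a group share strain and age but not arrays. The genes whose deviations were most like those of the Ly6C probe set, among 20074 probe sets with a mean signal of at least 100, were Mmp8 (r = 0.738), a collagenase of neutrophils, Klhl6 (0.733), a B cell signalling adaptor, Ap1s2 (0.727), a clathrin adaptor subunit, Anxa3 (0.725), an annexin, and Dbi (0.721), an acyl-CoA binding protein. Without the 2 mice farthest from their group means, NOD replicate 1 and NON replicate 1 of 2 weeks, these r were 0.597 to 0.695. Mmp8 is itself one of the neutrophil markers above.

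For Ly6d the most alike gene was Cd52 (r = 0.923), which encodes a GPI-anchored glycoprotein of lymphocytes and is also one of the leukocyte markers used. It was followed by Fkbp3 (0.9), a prolyl isomerase, Uqcrh (0.9), a subunit of respiratory complex III, Iglv1 (0.877), an immunoglobulin light chain segment, and Tmem126a (0.868), a mitochondrial protein. These r were 0.842 to 0.881 without NON replicate 5 of 2 weeks and NOD replicate 5 of 4 weeks. For the brighter Ly6e probe set the most alike genes were Uspl1 (0.816), Mettl23 (0.789), Gpd1l (0.789), Glipr2 (0.787) and Fem1a (0.787), at 0.683 to 0.758 without NOD replicate 3 and NON replicate 4 of 4 weeks. All are descriptions over mice that differ in RNA quality as well, with a Gapdh 3′/5′ signal ratio of 0.744 to 4.

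Other genes of the Ly6/uPAR family mostly did not differ between NOD and the mean of both controls. Of 34 such genes listed, 26 had a probe set of their own and 19 passed the filter. Of these, 1 was higher in NOD at 2 weeks, where 0.499% of all kept probe sets passed, and 0 at 4 weeks, where 0.804% did. It was Plaur, the receptor of urokinase, at 652 ± 72.6 in NOD (SD, n = 5), 364 ± 78.5 in NON and 352 ± 42.6 in C57BL/6 (log2 difference 0.86, standard error 0.15, limma adjusted p = 0.0166). Without NOD replicate 1, 2, 4 or 5 it missed the threshold (0.0518 to 0.0578). The list's median log2 difference was 0.20 at both ages, beside 0.06 and 0.05 over all probe sets.

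Between the control strains, 2 family genes were higher in C57BL/6 than in NON at 2 weeks, beside 1.56% of all probe sets called in either direction. Lynx1, a GPI-anchored modulator of nicotinic acetylcholine receptors, was at 1931 ± 316 against 776 ± 42.7 (log2 difference 1.29, standard error 0.18, limma adjusted p = 0.00163). Ly6k, best known from the testis, was at 460 ± 28.6 against 262 ± 56.1 (adjusted p = 0.0452), and rose in NON mice to 424 ± 73.9 at 4 weeks (log2 difference 0.68, adjusted p = 0.0346). Lynx1 and Ly6k each also had a dimmer kept probe set, at median signals of 100 and 103 over all mice, which was not examined in these comparisons. Cd177, a neutrophil surface protein, fell in C57BL/6 mice from 836 ± 135 at 2 weeks to 218 ± 55.8 at 4 weeks (log2 difference -1.91, standard error 0.31, limma adjusted p = 0.00252). In the RefSeq annotation Ly6k lies inside the stretch of chromosome 15 from Ly6d to Ly6c2, and Lynx1 is among the 20 genes nearest to that stretch on each side. Of these 40 neighbours, 17 had a probe set and 10 passed the filter, and only Lynx1 was called in the 7 comparisons examined.

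Interferon-induced genes were read beside Ly6e, itself an interferon-induced gene. Of 36 listed, 32 passed the filter. Between NOD and the mean of the controls, 0 passed with limma at either age, beside 0.499% and 0.804% of all kept probe sets. In that comparison the brighter Ly6e probe set was at -0.99 at 2 weeks (limma adjusted p = 0.0076) and -0.98 at 4 weeks (0.0548). The dimmer one was at -0.34 (0.706) and -0.64 (0.327). NOD and C57BL/6 alone were not compared for this list. At 4 weeks 3 were higher in C57BL/6 than in NON, as Ly6e was, beside 0.794% of all probe sets called in either direction. Rtp4, a chaperone of membrane receptors, was at 815 ± 142 in C57BL/6 (SD, n = 5) against 338 ± 122 in NON (adjusted p = 0.0249). Xaf1, a promoter of cell death, was at 2478 ± 220 against 1105 ± 306 (adjusted p = 0.0318), and Zbp1, a sensor of nucleic acids, at 298 ± 61.7 against 134 ± 17.8 (adjusted p = 0.033). At 2 weeks 0 of the 32 passed in that comparison. The median log2 difference of C57BL/6 minus NON was 0.31 at 2 weeks and 0.43 at 4 weeks, beside -0.03 and 0.01 over all probe sets.

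With age, 2 of the 32 interferon-induced genes rose in each strain, beside 0.146% of all kept probe sets called in either direction in NOD, 1.46% in NON and 0.46% in C57BL/6, and the other 30 did not pass. Rtp4 passed in all 3 strains, going from 123 ± 42.0 to 507 ± 129 in NOD (log2 difference 1.98, standard error 0.30, limma adjusted p = 0.00196), with adjusted p of 0.0144 in NON and 0.0247 in C57BL/6. Ifih1, a sensor of viral RNA, also rose in NOD (0.94, adjusted p = 0.0393), Ifi27l2a, an interferon-induced mitochondrial protein, in NON (1.18, adjusted p = 0.0217) and Zbp1 in C57BL/6 (1.13, adjusted p = 0.0479). The list's median log2 difference with age was 0.59 in NOD, 0.36 in NON and 0.55 in C57BL/6, and that over all probe sets was within 0.03 of 0.

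Genes that build the GPI anchor and attach it to proteins such as Ly6 were mostly alike in the strains. Of 28 listed, 27 passed the filter, and between NOD and the averaged control strains 0 differed at 2 weeks and 1 at 4 weeks, beside 0.499% and 0.804% of all kept probe sets. It was Pigo, an ethanolamine phosphate transferase of the anchor, at 336 ± 45.1 in NOD (SD, n = 5), 298 ± 42.1 in C57BL/6 and 91.2 ± 11.7 in NON (log2 difference 0.97, standard error 0.15, limma adjusted p = 0.00363). NON was the strain apart, with C57BL/6 minus NON at 1.90 at 2 weeks (adjusted p = 0.00119) and 1.60 at 4 weeks (adjusted p = 9.75e-05). The call at 4 weeks was lost when all Pigo probe sets were averaged (0.41, adjusted p = 0.366). With age, 0 of the 27 passed with limma in any strain, beside 0.146% of all probe sets in NOD, 1.46% in NON and 0.46% in C57BL/6.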

How the data were processed

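The deposited intensities were MAS5 signals that the authors had scaled globally on each array. The 2% trimmed mean of the deposited arrays was 250, which is not the lower target that the methods name, so the signals printed here are on another scale than the methods describe. The 64 control probe sets of each array were left out, the arrays of a mouse were joined (100 probe sets on both, 430A kept), and 38293 of 45037 probe sets with a signal of at least 50 in at least 5 mice were kept. Values were analysed as log2(signal + 10), which understates differences of dim probe sets. Fold differences are ratios of mean signals. Overlap of groups was described for single probe sets and marker sums and was not counted over all probe sets. With R 4.3.3 and limma 3.58.1, strains were compared at each age (15 mice) by moderated F-test and pairwise contrasts, and ages and their interaction with strain in a fit of all 6 groups. Benjamini-Hochberg adjustment ran over all kept probe sets, with calls at an adjusted p under 0.05.

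Genes in a list were read on their brightest kept probe set. Named genes were all Ly6 probe sets, the 5 genes most correlated with each of 3 of them, and up to 4 called genes per list and comparison with the smallest adjusted p. The members, lists and tests were chosen with earlier results of these data known. In the annotation, 34945 probe sets had 1 gene symbol, 932 had several and 9160 had none. Promoter windows covered 2 of the 5 genes. Array processing dates were not given in the sources used here. The precision is limited by how many arrays there are, and the fits were tested on simulated data. Alternatives were other pseudocounts (1 and 50), filters, quantile normalization, an intensity trend, a replicate block, the methods' tests and leaving out each mouse.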

Additional observations from a re-analysis of the deposited data

Results flagged for a closer look

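For Ly6d, 2 mice each stood far from the other 4 of their group. NON replicate 5 of 2 weeks had a signal of 289.6, against 618.6 to 796.3 in the others. Its gap to the nearest mouse was 0.749 of the group's range on the log2 scale, above Dixon's critical value of 0.71 for 5 samples. The same mouse had the lowest summed B cell markers of the 30 mice (11687, against 21120 to 26582 in the other NON mice of 2 weeks) and the lowest summed leukocyte markers (10351). C57BL/6 replicate 5 of 4 weeks had a Ly6d signal of 4977.4, against 7269.8 to 8004.3 (gap 0.797 of the range). Its summed B cell markers, at 31298, were the median of its group. About 1 in 20 groups is flagged by chance in this way, and 24 groups of 5 were examined. Without either mouse Ly6d remained higher in C57BL/6 than in both other strains.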

How the results depend on the processing

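Over all alternatives run, the log2 differences of the 4 Ly6 probe sets never changed sign where they were called. The count of probe sets past the strain test was 3 of 3 at each age under every alternative except the threshold of 0.005, where it was 2 at each age, and it stayed 3 when each mouse was left out. Between C57BL/6 and the other strains, Ly6d passed in all 22 alternatives at each age (adjusted p at most 0.00507), as did the brighter Ly6e probe set between NOD and C57BL/6 (at most 0.0303). Its C57BL/6 to NON difference passed in 13 of 22 at 2 weeks, with 0.127 after quantile normalization, and in 15 of 22 at 4 weeks. The Ly6d difference between NOD and NON at 2 weeks passed in 2 of 22, a pseudocount of 50 (0.0451) and an intensity trend (0.0335). Age differences passed in 0 cases, leaving out each mouse included (0 to 0), except 1 by the methods' unadjusted t-test at p under 0.001, and the interaction in 0. In the gene lists, the number that differed between NOD and the controls was 1 at each age. It became 2 at each age with a pseudocount of 50, 2 at 4 weeks with an intensity trend and 0 at 4 weeks when probe sets were averaged. Leaving out single mice gave 0 to 2 at 2 weeks and 1 to 2 at 4 weeks. The further genes were Pigo at 2 weeks (without NON replicate 2, adjusted p = 0.0225) and Samd9l at 4 weeks (without NOD replicate 2, 0.0132). Mice with equal replicate numbers share only a number in the labels (median correlation of deviations 0.0422 over 30 pairs, against -0.0106 over 120 other pairs). A replicate block kept 3 of 3 strain calls at each age and lowered calls over all probe sets from 635 to 472 and from 578 to 367. It gave adjusted p of 0.0514 and 0.0717 for the brighter Ly6e probe set between C57BL/6 and NON, and of 0.0465 and 0.0556 for the dimmer one between NOD and C57BL/6. The cause was not tested.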
